A study of Mus musculus with 6 samples.

Results

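Toll-like receptors detect molecules of microbes and start an inflammatory and proliferative response in the cells that carry them. Resting B cells use them alongside the antigen receptor. The 10 genes described here encode 7 Toll-like receptors (Tlr1, Tlr2, Tlr3, Tlr4, Tlr6, Tlr7 and Tlr9) and 3 partners, the surface receptor Cd180, the transport protein Unc93b1 and the adaptor Myd88. They were taken by symbol from the annotation of the array, which held 16 probe sets for them among 45101 in all. A probe set is a group of short probes on the array that together report 1 transcript. For a gene with several probe sets the one with the highest mean over all 6 samples represented it, and this gave 10 genes among 18193.

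The study profiled splenic B cells from mice with floxed Crebbp (CBPF/F x EµBcl2) and mice with deleted Crebbp (CBPΔ/Δ x EµBcl2), 3 mice in each group. Crebbp encodes a lysine acetyltransferase that acts as a transcriptional coactivator, and the series asks how its loss works together with excess Bcl2 in B cell lymphoma. Both groups therefore carried the EµBcl2 transgene, in which the immunoglobulin heavy chain enhancer drives the survival gene Bcl2, and no group without it was measured. Spleen cells were frozen alive, thawed and freed of CD43-bearing cells with magnetic beads, a step that removes most T cells, myeloid cells, plasma cells and B-1 cells. The Cre line, the age and the sex of the mice are not given in the sources used here. The p-values below measure the spread between these 6 mice.

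Values are log2 intensities after RMA, and differences are deleted minus floxed, each with the standard error (SE) from limma. A gene is called changed where limma's Benjamini-Hochberg adjusted p over all 18193 genes is under 0.05. The array medians lay between 4.27 and 4.30 (log2) after RMA, which sets the arrays to 1 distribution. All 4 Crebbp probe sets were lower in every deleted mouse than in any floxed mouse, with log2 differences from -0.97 to -0.50, of which 1 passed limma's threshold over all probe sets (probe set 1436983_at, -0.79, adjusted p = 0.033). At its brightest probe set, tested among the 18193 genes, Crebbp differed by -0.50 and was not called (limma adjusted p = 0.0777). Which of the 4 probe sets fall within the deletion was not analysed. Of 12 genes that define B cells 11 were measured, and their summed intensity was 45960 to 49757 in the floxed mice and 46578 to 47790 in the deleted mice. In sign 9 of the 11 were lower, with a median difference of -0.19, and 5 were lower without overlap, against 10.02% of all genes. Of the 11 genes 1 was called lower and 1 higher, against 0.236% and 0.544% of all genes. One of them, the antigen receptor subunit Cd79a, fell from 11.93 to 10.82 (limma adjusted p = 0.00928), a call lost without floxed mouse 1 (0.0591) or deleted mouse 1 (0.0566). The immunoglobulin heavy chain gene Ighm, also on that list, rose from 13.33 to 13.96 (limma adjusted p = 0.0316), a call lost without any 1 of the 6 mice (0.0533 to 0.124) and with sex as a term (0.0823). Xist and Y-linked genes marked floxed mouse 1 and deleted mice 1 and 3 as males, and floxed mice 2 and 3 and deleted mouse 2 as females, so sex was uneven between the groups.

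The receptors differ in where they act. Tlr1, Tlr2 and Tlr6 bind bacterial lipoproteins at the cell surface, with Tlr2 pairing with either of the others, and Tlr4 senses lipopolysaccharide there. Cd180, also known as RP105, resembles Tlr4 but lacks its signalling domain, and sits on B cells bound to Ly86 (MD-1). Tlr3, Tlr7 and Tlr9 lie in endosomes, where they detect double-stranded RNA, single-stranded RNA and DNA with unmethylated CpG. Unc93b1 carries these endosomal receptors out of the endoplasmic reticulum. Myd88 links every receptor of the family except Tlr3 to the kinases that activate NF-κB.

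Promoter sequences were at hand for 7 of the 10 genes, as 10 windows from 250 bases before to 50 bases after a transcription start (RefSeq, build GRCm38.p6). The windows of Tlr9 and Cd180 are printed because both genes were lower in every deleted mouse than in any floxed mouse. Tlr7 and Unc93b1 were lower in the same way, but no window was at hand for them or for Tlr4. Their promoters were not searched. Capitals mark the octamer core ATGCAAA on either strand (TTTGCAT on the other), the core of the motif that Oct factors bind in B cell promoters.
Tlr9, chr9:106222348-106222647, + strand: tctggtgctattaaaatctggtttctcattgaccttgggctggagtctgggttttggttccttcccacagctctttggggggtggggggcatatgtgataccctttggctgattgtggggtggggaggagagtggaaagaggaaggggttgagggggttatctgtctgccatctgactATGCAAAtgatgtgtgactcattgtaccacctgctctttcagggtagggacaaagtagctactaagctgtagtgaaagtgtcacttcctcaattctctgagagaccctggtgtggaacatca
Cd180, chr13:102693297-102693596, + strand: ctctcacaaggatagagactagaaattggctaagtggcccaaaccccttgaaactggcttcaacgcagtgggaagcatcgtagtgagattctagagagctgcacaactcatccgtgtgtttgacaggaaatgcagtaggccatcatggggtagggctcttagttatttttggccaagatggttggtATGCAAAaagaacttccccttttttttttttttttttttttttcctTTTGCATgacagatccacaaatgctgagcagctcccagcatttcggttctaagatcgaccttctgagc
A second Cd180 window, shifted by a few bases, holds the same matches. The 6 motifs searched on both strands were the CRE TGACGTCA, its half-site TGACG, the octamer ATGCAAAT, its core ATGCAAA, the AP-1 site TGANTCA and the PU.1 core GAGGAA. The half-site lies inside the CRE and the core inside the octamer, so those matches overlap. The octamer core was in 3 of the 10 windows and in 4.63% of all 32851 windows of that length. The 3 are the 1 of Tlr9 and the 2 of Cd180, which overlap and so count 1 promoter 2 times. The full octamer was in the Tlr9 window and in 1.74% of all windows, and that window also held 1 AP-1 site (7.81% of all windows) and 2 PU.1 cores (28.3%). The CRE was in none of the 10 windows and in 1.79% of all. Its half-site was in 1 of the 10 windows and in 20.8% of all. The PU.1 core was in 2 of the 10 and the AP-1 site in 1. A match describes the letters only, and the motifs were chosen after the windows had been read.

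Of the 10 genes 1 was called lower in the deleted mice, Tlr7, against 0.236% of all genes called lower and 0.781% called in either direction. Tlr7, Tlr9, Unc93b1 and Cd180, 4 of the 10, were lower in all 3 deleted mice than in all 3 floxed mice, against 10.02% of all genes. The same 4 had an unadjusted limma p under 0.05 with a lower value, against 6.84% of all genes. In sign, 7 of the 10 were lower and 3 were higher, with a median difference of -0.08 (log2) beside 0.01 over all genes. Without floxed mouse 1, floxed mouse 3 or deleted mouse 1 that median was -0.18, -0.22 and -0.23, and without floxed mouse 2 it was -0.021. The differences of the 4 surface Toll-like receptors ran from -0.04 to 0.28, and all 4 overlapped between the groups.

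**Figure D1:**
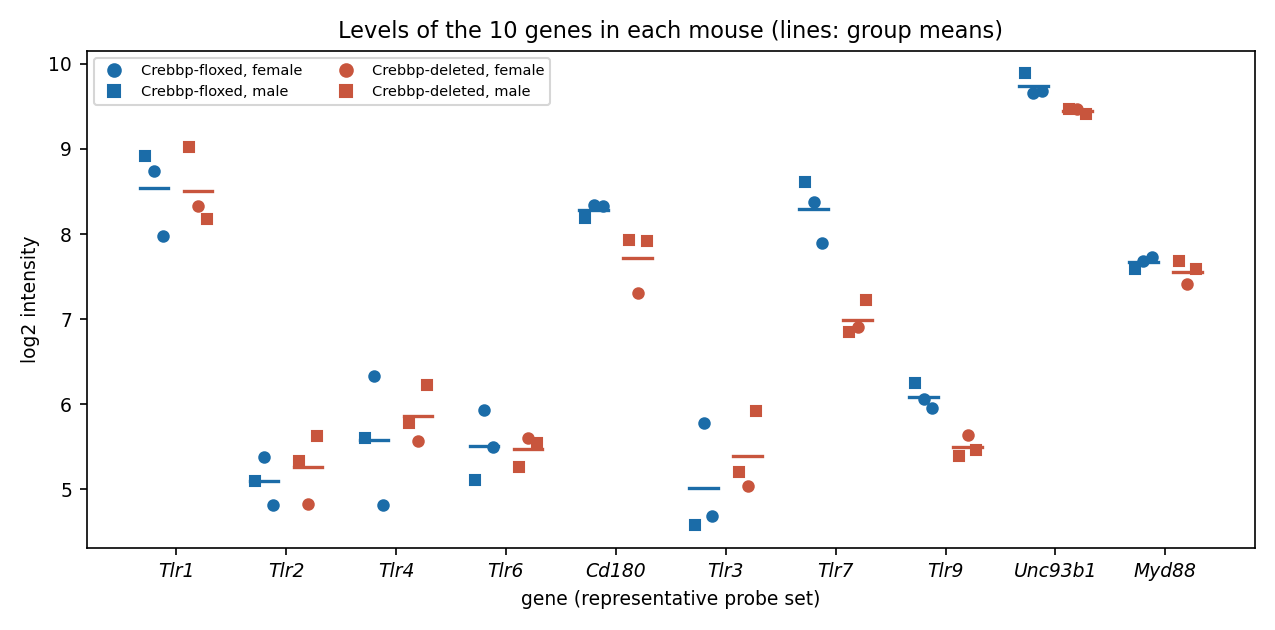
Log2 intensity (vertical axis) of each of the 10 genes in every mouse, at its representative probe set. Blue marks floxed and red deleted mice, squares male and circles female mice, and lines the group means. For Cd180, Tlr7, Tlr9 and Unc93b1 the 3 red points lie below the 3 blue points. Levels of different genes are not comparable, because each has its own probes.

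Tlr7, which detects single-stranded RNA inside endosomes, showed the largest difference of the 10. On probe set 1422010_at the floxed mice read 8.62, 8.38 and 7.89 (log2 intensity, mice 1 to 3) and the deleted mice 6.85, 6.90 and 7.22. The lowest floxed mouse lay above the highest deleted mouse. The means were 8.30 ± 0.37 and 6.99 ± 0.20 (SD, n = 3 each), a difference of -1.30 ± 0.20 (SE, log2; 95% interval -1.76 to -0.85), or 2.47-fold lower, and Tlr7 fell by limma's test (adjusted p = 0.0385).

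The gene has 2 further probe sets. Probe set 1449640_at read 6.47, 6.03 and 6.01 in the floxed mice and 4.90, 5.30 and 4.99 in the deleted mice, 2.15-fold lower, and passed when all probe sets were tested singly (limma adjusted p = 0.0487). Probe set 1419848_x_at read 6.49, 6.24 and 5.83 against 4.85, 5.33 and 5.14, 2.12-fold lower, and did not pass (limma adjusted p = 0.0798). Tested singly, 1422010_at missed the threshold by a small margin (limma adjusted p = 0.0508). In each of the 3 probe sets every deleted mouse was below every floxed mouse. The 1419848_x_at and 1449640_at probe sets were designed on 1 transcript record and are not independent, and the suffix x marks probes that can match other sequences. Of the 16 probe sets 1 was called, against 0.164% of all probe sets called lower.

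The call for Tlr7 changed with the mice included. It was lost when floxed mouse 1, floxed mouse 2 or any deleted mouse was left out (limma adjusted p = 0.0694 to 0.153, log2 difference -1.42 to -1.14), and kept without floxed mouse 3 (adjusted p = 0.0101, difference -1.51). With sex as a term in the fit the difference was -1.41 ± 0.19 (SE) and missed the threshold (limma adjusted p = 0.0655), and none of the 10 genes was called in that fit, against 0.0550% of all genes called lower. Within male mice (1 floxed, 2 deleted) the difference was -1.58 and within female mice (2 floxed, 1 deleted) -1.23, neither called (limma adjusted p = 0.0998 and 0.866). Tlr7 is X-linked, and of 16 measured genes on a list of X-linked genes it was the 1 called in the fit without a covariate. Of all genes 0.236% were called lower in that fit and 0.781% in either direction. Its X-linked neighbour Tlr8, whose product also senses single-stranded RNA, was dim, at 2.77 ± 0.17 in the floxed and 3.14 ± 0.56 in the deleted mice (SD, n = 3), below the median of 4.29 over all probe sets.

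**Figure D2:**
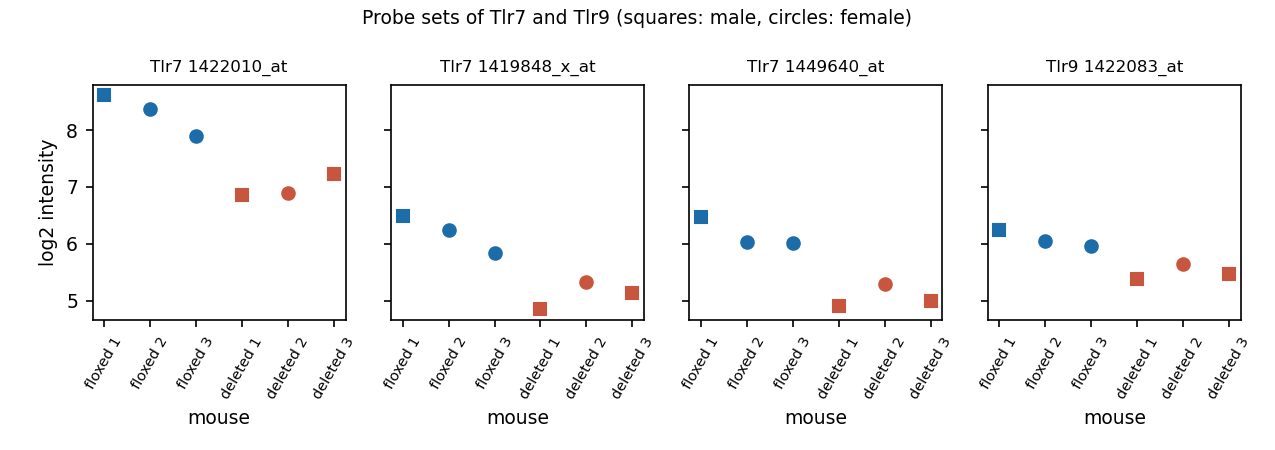
Log2 intensity (vertical axis) in each mouse (horizontal axis) at the 3 Tlr7 probe sets and the Tlr9 probe set. Squares mark male and circles female mice, blue floxed and red deleted. In all 4 panels the floxed mice lie above the deleted mice.

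Tlr9, the endosomal receptor for CpG DNA whose promoter is printed above, read 6.25, 6.06 and 5.96 in the floxed mice and 5.39, 5.64 and 5.47 in the deleted mice. The groups did not overlap. The means were 6.09 ± 0.15 and 5.50 ± 0.13 (SD, n = 3), a difference of -0.59 ± 0.11 (SE; 95% interval -0.86 to -0.32), 1.50-fold lower, which did not pass limma's threshold (adjusted p = 0.0722). The difference was -0.82 in male and -0.37 in female mice.

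Unc93b1, which carries Tlr7 and Tlr9 to endosomes, read 9.89, 9.66 and 9.68 in the floxed and 9.47, 9.47 and 9.41 in the deleted mice. The deleted mice lay close together and below all floxed mice. The difference was -0.29 ± 0.10 (SE; 95% interval -0.52 to -0.07), and limma did not call it (adjusted p = 0.222). Tlr3, the third endosomal receptor, behaved otherwise, at 4.58, 5.78 and 4.69 in the floxed and 5.21, 5.04 and 5.92 in the deleted mice. These values overlap, and the difference of 0.37 ± 0.35 (SE; 95% interval -0.45 to 1.20) was not called (limma adjusted p = 0.686). Its other probe set, 1422781_at, differed by -0.10, and the difference at the first ran from 0.11 to 0.76 when 1 mouse was left out.

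Cd180 read 8.19, 8.34 and 8.33 in the floxed mice and 7.93, 7.30 and 7.92 in the deleted mice, with no overlap. The difference was -0.57 ± 0.18 (SE; 95% interval -0.98 to -0.16) and did not pass limma's threshold (adjusted p = 0.196). Without deleted mouse 2 it was -0.36. It was -0.26 in male and -1.03 in female mice, where the lowest value, of deleted mouse 2, lies; the difference between the sexes did not pass over all genes (limma interaction adjusted p = 1.00). Its partner Ly86 read 11.49, 11.58 and 11.45 in the floxed and 11.25, 11.30 and 11.22 in the deleted mice, again without overlap. Ly86 differed by -0.25 ± 0.09 (SE), not called (limma adjusted p = 0.233).

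The surface receptors for lipoproteins and lipopolysaccharide overlapped between the groups without exception. Tlr1 read 8.92, 8.74 and 7.97 in the floxed and 9.02, 8.33 and 8.17 in the deleted mice (difference -0.04, 95% interval -0.73 to 0.66, limma adjusted p = 0.972). Tlr6, its chromosomal neighbour, read 5.10, 5.93 and 5.50 against 5.27, 5.61 and 5.54 (difference -0.04, 95% interval -0.52 to 0.44, limma adjusted p = 0.955). Tlr2 read 5.10, 5.38 and 4.81 against 5.33, 4.82 and 5.63 (difference 0.16, 95% interval -0.36 to 0.69, limma adjusted p = 0.794). Each interval spans differences of either sign, so the data do not show that these levels were alike. Tlr4 read 5.61, 6.33 and 4.81 in the floxed and 5.78, 5.57 and 6.23 in the deleted mice at probe set 1418163_at (difference 0.28, 95% interval -0.57 to 1.12, limma adjusted p = 0.783). A second Tlr4 probe set, 1418162_at, read 4.80, 6.24 and 4.01 against 5.36, 5.92 and 6.06, a difference of 0.76 that was not called (limma adjusted p = 0.570). The remaining Tlr4 probe sets, 1442827_at and 1430695_at, had means of 3.52 and 2.50, below the median of all probe sets.

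Myd88, the adaptor, read 7.59, 7.69 and 7.73 in the floxed and 7.68, 7.41 and 7.59 in the deleted mice. The groups overlapped, and the difference of -0.11 ± 0.10 (SE; 95% interval -0.35 to 0.13) was not called (limma adjusted p = 0.677).

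**Figure D3:**
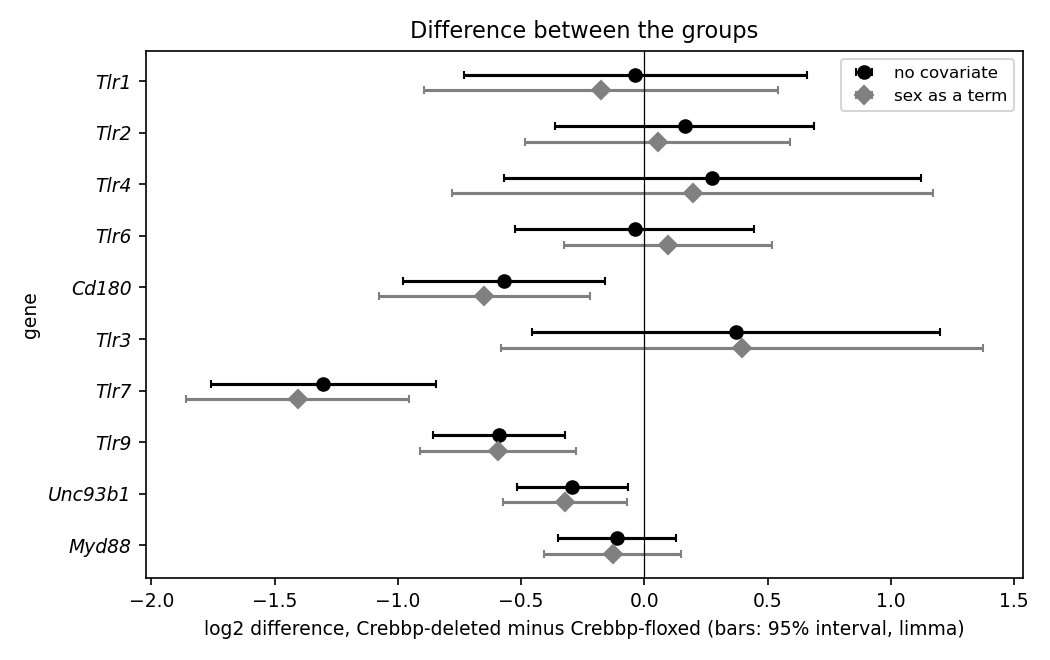
Log2 difference, deleted minus floxed (horizontal axis), of each of the 10 genes with its 95% interval from limma, without a covariate (black) and with sex as a term (grey). The intervals of Tlr7, Tlr9, Cd180 and Unc93b1 lie below 0 in both fits, before adjustment over all genes.

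Tlr7's pattern over the 6 mice was compared with those of other genes, and Tmem108, Csrp2, Hip1 and Zfp94 were among the 5 closest, by the root mean square difference between gene-centred log2 values among 10588 other genes with a mean above the median of all probe sets. Genes picked in this way share Tlr7's low values in the deleted mice by selection, so their group differences are a description and support nothing, and the same holds for the ranks below. The distance was 0.153 for Tmem108 and 0.220 for Zfp94. Tmem108, which encodes a transmembrane protein, differed by -1.32 (limma adjusted p = 0.0224). Csrp2, a LIM domain protein gene, differed by -1.30 (limma adjusted p = 0.0477). Both calls were lost without floxed mouse 1 or without any 1 of the deleted mice (limma adjusted p = 0.0694 to 0.170), and that of Csrp2 also without floxed mouse 2 (0.0838). With the mean of all its probe sets Tmem108 differed by -0.60 and was not called (limma adjusted p = 0.0523). Hip1 (-0.95, limma adjusted p = 0.0855) and Zfp94 (-1.12, limma adjusted p = 0.0677) were not called, and Zfp94 passed without deleted mouse 3 (0.0310). Of the other 9 genes described here Tlr9 was nearest, at rank 114 with a distance of 0.409, then Cd180 at rank 338, Unc93b1 at rank 849 and Myd88 at rank 3304. The 5 others ranked from 6282 to 9854.

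The rest of the pathway was read through lists of genes by role. Among 18 measured genes of receptor trafficking and processing 1 fell, the lysosomal histidine and peptide transporter Slc15a3. It read 6.14, 6.36 and 6.48 in the floxed and 5.60, 5.61 and 5.58 in the deleted mice, which did not overlap, a difference of -0.73 ± 0.11 (SE; limma adjusted p = 0.0369). That call was lost when any 1 of the 6 mice was left out (limma adjusted p = 0.0529 to 0.148) and with sex as a term (0.0812). The list's median difference was -0.06, and 5 of the 18 were lower without overlap, against 10.02% of all genes. The 1 called of 18 stands against 0.236% of all genes called lower. The lysosomal protease Lgmn, which processes endosomal receptors, differed by -0.54 (limma adjusted p = 0.131), the ubiquitin ligase Rnf130 by -0.41 (0.0950) and the protease Ctsk by -0.47 (0.170), and none of these was called. In sign 10 of the 18 were lower and 8 higher. The largest difference was that of Ctsl, which was higher by 0.95 but not called (limma adjusted p = 0.331). Hsp90b1, at 0.31 (0.412), was the 1 higher without overlap, against 11.2% of all genes.

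Beyond the receptor none of the signalling lists had a called gene. Among 18 adaptors and kinases the median difference was -0.18 and 1 had an unadjusted limma p under 0.05 with a lower value, against 6.84% of all genes. It was the kinase Irak2, at -0.72 (limma adjusted p = 0.112). Ikbke, an IκB kinase, was the 1 with a higher value, at 0.36 (limma adjusted p = 0.134), where 7.96% of all genes were higher at that p. Among 9 transcription factors the median was -0.24, with the NF-κB subunits Nfkb2 at -0.44 (limma adjusted p = 0.0994), Relb at -0.52 (0.149) and Rela at -0.24 (0.281). Without floxed mouse 2 the adjusted p by limma was 0.0488 for Irak2 and 0.0497 for Relb. Among 18 negative regulators of the pathway the median was -0.22, 14 were lower, and 8 were lower without overlap between the groups, against 10.02% of all genes. These include the phosphatase Ptpn6 at -0.47 (limma adjusted p = 0.118), the ribonuclease Zc3h12a at -0.46 (0.134), the NF-κB inhibitor Nfkbie at -0.49 (0.155) and the receptor Sigirr at -0.25 (0.214).

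Of the genes that B cells switch on after Toll-like receptor signalling 19 were measured. In sign 13 were higher, beside 9707 of all 18193 genes. None of these was higher without overlap, against 11.2% of all genes. The list's mean log2 level overlapped between the groups, at 6.87, 6.94 and 7.28 in the floxed and 7.18, 6.91 and 7.16 in the deleted mice. The median difference was 0.23 beside 0.01 over all genes, with none called. The 3 with an unadjusted limma p under 0.05 were lower, against 6.84% of all genes lower at that p. They were Il12a, a cytokine subunit, at -1.51 (limma adjusted p = 0.0677), Traf1, a signalling adaptor, at -0.77 (0.142), and Ebi3, a cytokine subunit, at -0.41 (0.302). Among 9 other receptors and co-receptors the median was -0.01. Ly86 and Lbp, the lipopolysaccharide-binding protein (-0.22), were the 2 lower without overlap, against 10.02% of all genes. Lbp was dim, with a mean of 4.36 beside the median of 4.29 over all probe sets. With the mean of all its probe sets Lbp differed by -0.025 (limma adjusted p = 0.92).

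**Figure D4:**
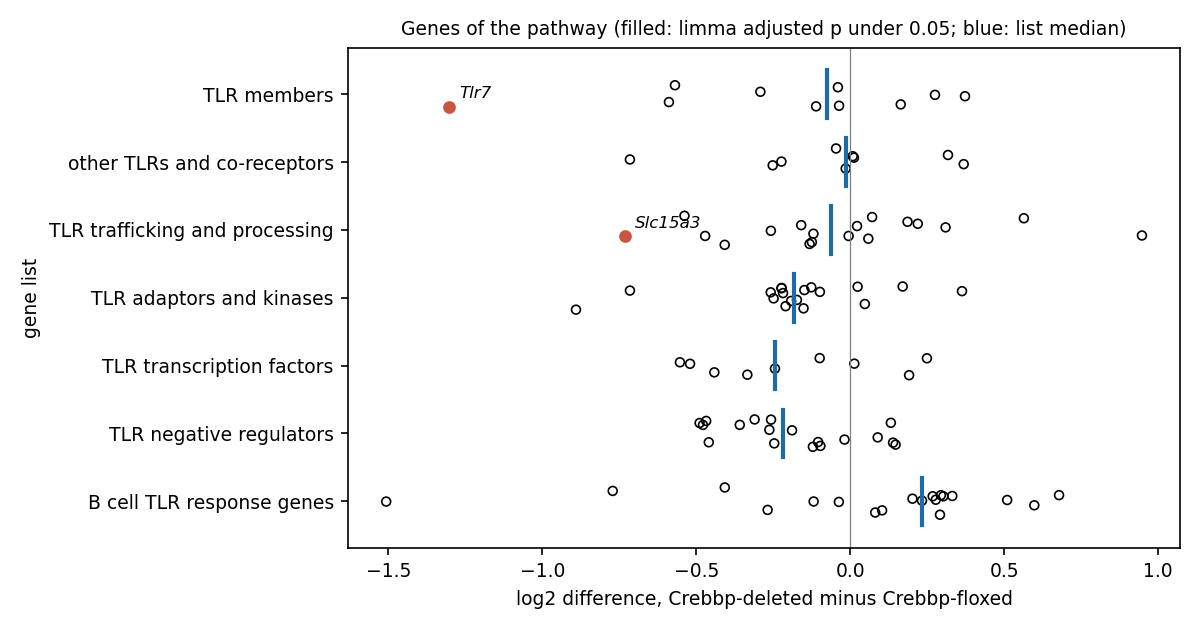
Log2 difference, deleted minus floxed (horizontal axis), of each measured gene in 7 lists (vertical axis). Open circles did not pass limma's adjusted p of 0.05, filled red circles did (Tlr7 and Slc15a3), and blue bars are the list medians. The medians lie between -0.24 and 0.23.

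Some markers of other cells differed between the groups, and their part in the values above was not tested. In bulk RNA fewer cells of a type and less RNA per cell cannot be told apart. All 13 plasma cell markers were higher in the deleted mice, 11 of them without overlap, against 11.2% of all genes higher in that way, with a summed intensity of 7270 to 8130 in the floxed and 13689 to 22507 in the deleted mice. One of them, the immunoglobulin joining chain Jchain, rose by 1.65 (log2; limma adjusted p = 0.0105), a call lost without floxed mouse 1 (0.0553) or deleted mouse 1 (0.0523). It was the 1 called of the 13, against 0.544% of all genes called higher. All 14 macrophage and monocyte markers were higher, with sums of 1759, 562 and 971 in the floxed and 3223, 1620 and 3836 in the deleted mice and none called. An unadjusted limma p under 0.05 with a higher value was found for 9, against 7.96% of all genes. Higher without overlap were 4, against 11.2% of all genes. On this list the complement gene C1qb differed by 2.09 (limma adjusted p = 0.0677), and the macrophage surface receptor Adgre1 by 0.93 (0.460). At probe set 1418163_at Tlr4, which macrophages also carry, was highest in floxed mouse 2, where that sum was lowest. In the other 5 mice it had the same order as the sum. At probe set 1418162_at Tlr4 was also highest in floxed mouse 2 (6.24), but the order in the other 5 mice was not that of the sum. There deleted mouse 2 (5.92) read above floxed mouse 1 (4.80) and deleted mouse 1 (5.36). Whether macrophages account for these values was not tested.

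Plasmacytoid dendritic cells carry Tlr7 and Tlr9, and the sum of their 9 measured markers was 5301 to 5535 in the floxed and 4155 to 4571 in the deleted mice. Most of that sum is Ly6d, which B cells also express, at 12.01 and 11.62 (log2; limma adjusted p = 0.102). Siglech, the defining marker of these cells, read 5.11 ± 0.55 and 5.15 ± 0.40 (SD, n = 3), and the median difference of the list was 0.01. In sign 5 of the 9 were higher and 4 lower. Higher without overlap were 2, against 11.2% of all genes, and lower without overlap 1, Ly6d, against 10.02%. The 2 were Lag3 at 1.09 (limma adjusted p = 0.233) and Cox6a2 at 0.51 (0.365). Marginal zone B cells respond to Toll-like receptor ligands, and 4 of their 12 markers had an unadjusted limma p under 0.05 with a lower value, against 6.84% of all genes, with a list median of -0.21 and none called. In sign 7 were lower and 5 higher, among the latter Mzb1, a chaperone that the plasma cell list also holds, at 0.70 (limma adjusted p = 0.162). The complement receptor Cr2 differed by -0.75 (limma adjusted p = 0.164) and the Notch target Dtx1 by -1.03 (0.215). Of 10 measured transitional B cell markers 1 was called, against 0.236% of all genes called lower. It was Sox4, which fell by 1.35 (log2, limma adjusted p = 0.0421). That call was lost without floxed mouse 1 or any deleted mouse (0.106 to 0.158), with 16 added to each intensity (0.0753) and with the mean of all its probe sets, where the difference was -0.41 (0.180). Sums of T cell markers were 294 to 360 in the floxed and 361 to 381 in the deleted mice, and those of neutrophil markers 112 to 409 and 109 to 576. No marker was listed at 0, as the lowest intensity of any probe set was 2.96.

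**Figure D5:**
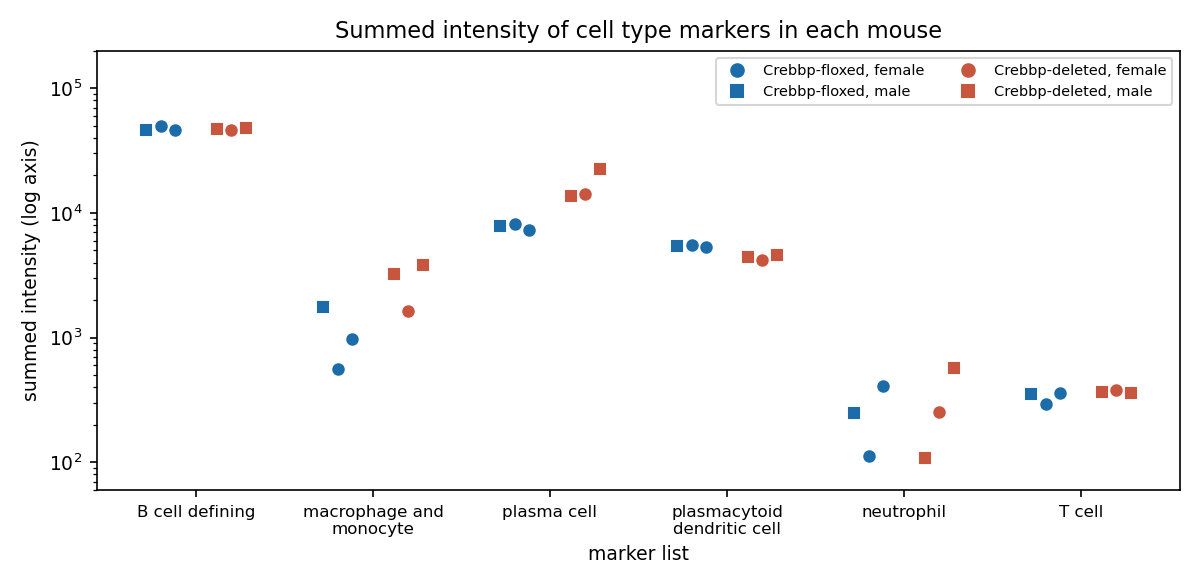
Summed intensity (vertical log axis) of the measured markers of 6 cell types in each mouse. Squares mark male and circles female mice, blue floxed and red deleted. The plasma cell sums of the deleted mice lie above those of the floxed mice, and the plasmacytoid dendritic cell sums, mostly Ly6d, below.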

How the data were processed

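RNA of splenic B cells from 6 mice was labelled with biotin and hybridised to Affymetrix arrays, 1 array for each mouse, and the deposited values are linear intensity per probe set, normalised by the authors with RMA per the submitters' processing notes, with the version not given in the sources used here. Intensities ran from 2.96 to 17022 and were set to log2 without an offset. Of the probe sets 34945 had 1 gene symbol, 932 several and 9211 none, and 64 control probe sets were left out; a gene was read from its brightest single-symbol probe set, over 18193 genes. The array annotation's Entrez IDs were looked up in RefSeq, where 34741 probe sets matched. The deleted and floxed mice, 3 of each, were tested against each other without a covariate in R 4.3.3 by lmFit and eBayes of limma 3.58.1, with Benjamini-Hochberg adjustment over all genes and a threshold of 0.05. The smallest two-sided permutation p for 3 against 3 mice is 0.1, so no permutation test was run. The genes named are the 10 members at every probe set, called genes of each list or else up to 4 with the smallest p, markers that define B cells and macrophages, Ly86, Tlr8, Crebbp and the 5 genes nearest to Tlr7, of which 1 is not reported here. The members and the lists were chosen with earlier results of these data known. The fit was checked on simulated data. Alternatives were normalisation, offset, filter, probe set rule, variance model, threshold, sex, replicate number and leaving out each mouse. Precision is limited by the number of arrays.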

Additional observations from a re-analysis of the deposited data

How the results depend on the processing

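Tlr7 kept its direction in 20 of 20 alternatives, from -1.58 to -1.14. It kept its call in 9, among them the looser threshold, which could not lose it. The call was also lost with 16 added to each intensity, with the replicate number as a block and with all probe sets tested singly. Cd180, Tlr9 and Unc93b1 kept their sign in every alternative. For Tlr7 and these genes the filter, variance model, threshold, replicate block, largest-variance probe set and single testing left the difference unchanged. No sign could turn there. The number of called genes, 142, was 449 at an adjusted p under 0.10, 37 with sex as a term, 4 within male mice and 0 within female mice (992 at an unadjusted limma p under 0.05), and ran from 0 without floxed mouse 1 (1990 unadjusted) to 226 without floxed mouse 3. Called members numbered 2 at an adjusted p under 0.10, where Tlr9 joined Tlr7, 0 with the offset, block, sex term or either sex alone, and 0 to 1 when 1 mouse was left out. Called member probe sets, 1, became 0 with the block or sex term and 0 to 2 when 1 mouse was left out. Signs turned for Tlr6 (0.0078 after quantile normalisation, 0.10 with sex as a term, 0.30 in males), Myd88 (0.042 in males), Tlr2 (-0.27), Tlr3 (-0.20), Tlr4 (-0.0061) and Tlr8 (-0.090) in females, and Siglech (-0.015 with sex as a term, -0.17 in females). When 1 mouse was left out Tlr1 ran from -0.32 to 0.15, Tlr2 from -0.021 to 0.38, Tlr4 from -0.11 to 0.65, Tlr6 from -0.24 to 0.17, Myd88 from -0.17 to -0.037, Cd180 from -0.68 to -0.36 and Siglech from -0.24 to 0.31. The cause was not tested. Whether the replicate numbers pair the mice is not known. The deviations of same-numbered mice from their group means correlated at 0.033, 0.104 and 0.006. Those of mice with unlike numbers ran from -0.117 to 0.079. With 3 mice a group, whose deviations sum to 0, these values cannot decide it. With the replicate block 126 genes were called.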
